A study of Homo sapiens with 4 samples.

Results

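The 8 genes described here set how much sterol a cell makes, takes up and exports, and were picked by symbol from 20812 genes measured in the human colon cancer line HCT116. They are SREBF1 and SREBF2, which encode the sterol regulatory element-binding proteins (SREBPs), and the SREBP handling genes SCAP, INSIG1 and INSIG2. The others are STARD4 for sterol transport, MYLIP for control of lipoprotein uptake and ABCA1 for sterol export. Each of the 8 symbols matched 1 row in all 4 count tables. Indole, a bacterial product of tryptophan breakdown, was applied at 1 mM for 24 h, with its solvent DMF as the control. The 4 groups were the hIDO1-overexpressing line with indole, that line with DMF, wild type HCT116 with indole and wild type with DMF. IDO1 is the enzyme that starts the breakdown of tryptophan to kynurenine. What drives the IDO1 construct, and whether the line is 1 clone, is not given in the sources used here.

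SREBPs are made as membrane-bound precursors in the endoplasmic reticulum, where SCAP binds them. When sterol is scarce, SCAP carries the precursor to the Golgi, proteases release its transcription factor domain, and genes of sterol and fatty acid synthesis are turned on. When sterol is abundant, INSIG proteins hold SCAP back. INSIG1 is itself an SREBP target, which closes a feedback loop. Oxysterols activate a different factor, the liver X receptor (LXR), whose targets include ABCA1, MYLIP and SREBF1.

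Each group was 1 library, so a difference between groups had no replicate check, and each range in brackets after a fold is a 95% interval for counting error alone. Library totals lay between 18283862 and 22736172 reads, and levels are given as CPM, read counts brought to a common library size by the TMM method. IDO1 had 2440 and 3451 reads in the IDO1 line with indole and with DMF, against 2 and 0 reads in wild type, so it was high where the labels name it as overexpressed. The wild type library with indole stood apart: on the first principal component, which took 74.4% of the variance of 8397 genes, it scored 30.5, and the others scored between -13.6 and -5.26. Of 10 colon epithelial markers, 8 or 9 had reads, and CEACAM5 was at 0 in every library. VIL1 was at 0 in both indole libraries, and its reads with DMF were too few for edgeR's additive fit described below. These markers summed to 3901 and 3568 CPM in the IDO1 line with indole and with DMF, against 4562 and 4890 CPM in wild type. Leukocyte, endothelial and hepatocyte markers summed to at most 10.3 CPM in any library, with PTPRC, CDH5 and FGB at 0. Of 7 leukocyte markers, 4 had reads in every library, with 152 to 234 reads a library for the list. Fibroblast markers summed to 74.7 to 98.6 CPM, with COL1A2 and DCN at 0 in every library. Most of each sum was COL1A1. It had 73.8 and 76.6 CPM in the IDO1 line with indole and with DMF, against 97.1 and 85.7 CPM in wild type. In bulk RNA, fewer cells with a transcript and less of it per cell cannot be told apart.

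The promoters of 3 genes are shown because INSIG1 and STARD4 moved furthest among the well-covered genes and SREBF2 encodes the SREBP best known for acting on sterol genes. Sequences are RefSeq promoter windows on GRCh38.p14, 250 bases before to 50 after the start, printed 5′ to 3′ on the strand of the gene. The INSIG1 window is chr7:155297628-155297927 on the plus strand, that of STARD4 is chr5:111512486-111512785 on the minus strand, and that of SREBF2 is chr22:41832855-41833154 on the plus strand. Capitals mark matches, on either strand, to a sterol regulatory element written TCACNCCAC, a CCAAT box or an E-box written CACGTG.
INSIG1: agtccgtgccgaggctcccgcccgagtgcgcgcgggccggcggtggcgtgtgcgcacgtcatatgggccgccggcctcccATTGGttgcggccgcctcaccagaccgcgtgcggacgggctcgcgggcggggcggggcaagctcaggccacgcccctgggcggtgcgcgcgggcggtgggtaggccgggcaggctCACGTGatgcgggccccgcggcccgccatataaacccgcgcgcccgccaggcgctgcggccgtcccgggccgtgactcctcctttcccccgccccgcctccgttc
STARD4: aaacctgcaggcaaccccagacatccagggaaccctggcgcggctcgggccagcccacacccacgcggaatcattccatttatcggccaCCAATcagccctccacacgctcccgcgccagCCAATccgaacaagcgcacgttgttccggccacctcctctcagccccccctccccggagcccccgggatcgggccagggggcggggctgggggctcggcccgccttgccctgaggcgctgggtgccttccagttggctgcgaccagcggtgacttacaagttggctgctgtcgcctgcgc
SREBF2: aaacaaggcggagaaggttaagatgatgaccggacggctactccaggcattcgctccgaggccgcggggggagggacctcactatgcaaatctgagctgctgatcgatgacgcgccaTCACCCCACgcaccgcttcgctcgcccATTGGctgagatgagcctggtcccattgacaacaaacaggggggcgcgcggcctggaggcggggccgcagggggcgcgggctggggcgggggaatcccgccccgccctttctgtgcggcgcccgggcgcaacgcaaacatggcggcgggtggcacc

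In SREBF2 the sterol element read TCACCCCAC, 133 bases before the start, and a CCAAT box on the other strand lay 106 bases before it. INSIG1 had an E-box at 55 bases and a CCAAT box at 170 bases before its start. STARD4 had CCAAT boxes at 161 and 130 bases before its start. Among 35116 promoter windows of the same length, 1.13% held TCACNCCAC, 34.6% held CCAAT and 7.26% held CACGTG. Of the other members, MYLIP had 2 CCAAT boxes, SCAP and ABCA1 had 1 E-box each, and SREBF1 and INSIG2 had none of these matches. A GC box, written GGGCGG, was found in the windows of all 8 members and in 45.0% of all windows. The nuclear receptor half-site AGGTCA was in no member's window and in 13.8% of all windows. These matches are letters in a window and show no binding.

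INSIG1, which holds SCAP in the endoplasmic reticulum, varied most among the well-covered members. Its level was 211 and 188 CPM in the IDO1 line with indole and with DMF, and 135 and 353 CPM in wild type with indole and with DMF, from 2608 to 7503 reads. Wild type with DMF was thus the highest library and wild type with indole the lowest, with both IDO1 libraries between them and every neighbouring pair in that order apart beyond counting error. Within wild type, INSIG1 was 2.62-fold lower with indole than with DMF (2.5 to 2.74). Within the IDO1 line it was 1.12-fold higher with indole (1.07 to 1.17). In DMF its level in the IDO1 line was 1.87-fold below that of wild type (1.80 to 1.94), and in indole it was 1.56-fold higher there (1.49 to 1.64).

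**Figure D1:**
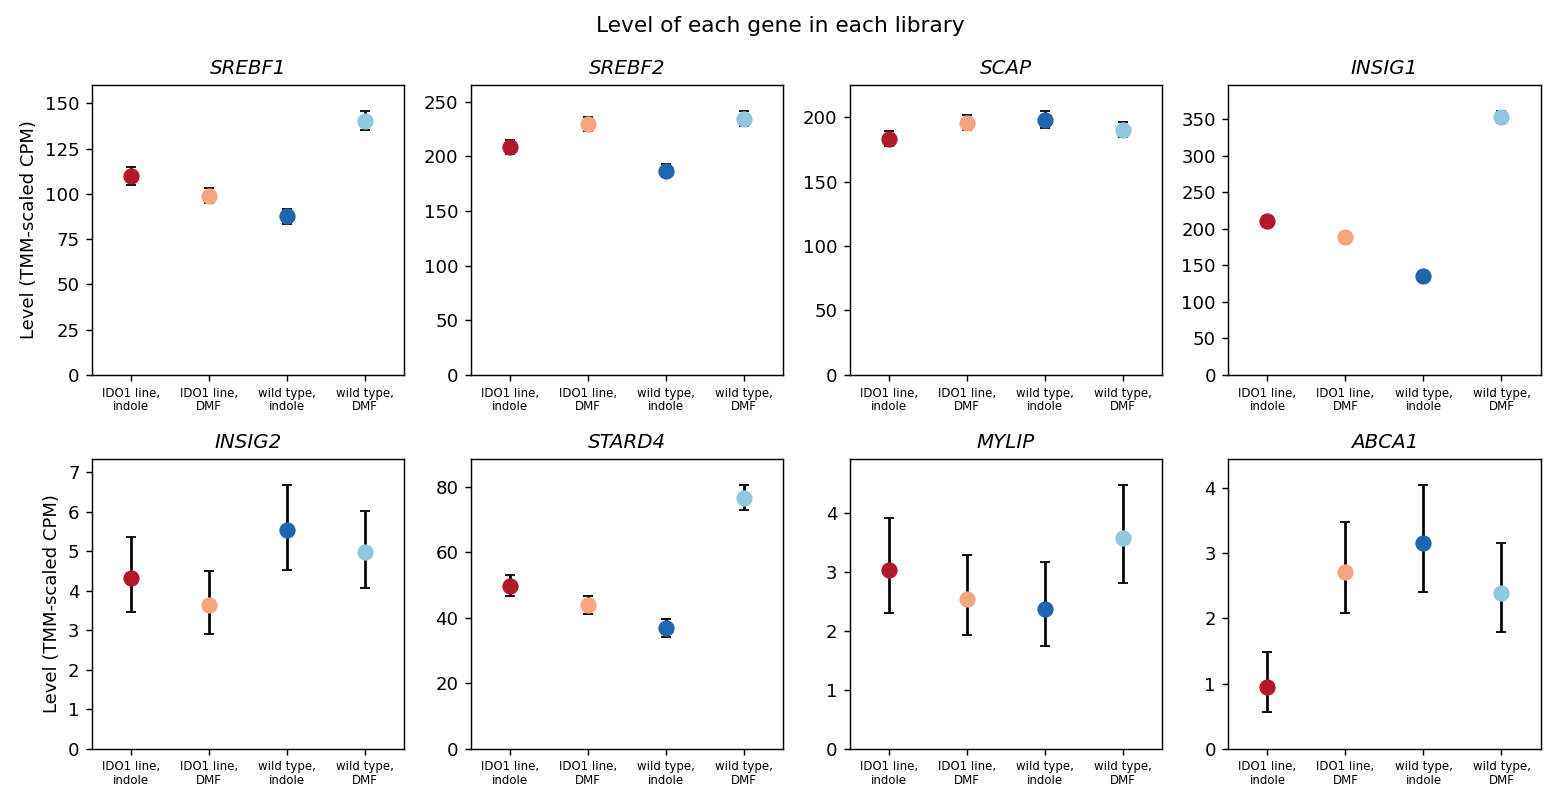
Levels of the 8 genes in the 4 libraries, in TMM-scaled CPM, with exact 95% Poisson intervals of counting error as bars. Within each gene the libraries run from the IDO1 line with indole and with DMF to wild type with indole and with DMF. INSIG1 runs from 135 to 353 CPM, while SCAP stays between 183 and 198 CPM.

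STARD4, a soluble protein that moves cholesterol between membranes, followed the order of INSIG1 at a lower level. It had 49.8 and 44.0 CPM in the IDO1 line with indole and with DMF, against 36.7 and 76.8 CPM in wild type with indole and with DMF, from 711 to 1633 reads. With indole it was 2.09-fold lower in wild type (1.91 to 2.29) and 1.13-fold higher in the IDO1 line (1.04 to 1.24). Set against wild type, the IDO1 line had 1.75-fold less STARD4 in DMF (1.61 to 1.89) and 1.36-fold more in indole (1.23 to 1.5). All neighbouring libraries in its order were apart beyond counting error.

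SREBF1 and SREBF2 encode the SREBP factors, SREBF1 being tied mostly to fatty acid genes and SREBF2 to sterol genes. SREBF1 had 109.8 and 98.8 CPM in the IDO1 line with indole and with DMF, and 87.5 and 140.4 CPM in wild type with indole and with DMF, from 1694 to 2987 reads. This is the order of INSIG1 with a narrower range, the highest library being 1.60-fold above the lowest. Indole went with a 1.60-fold lower level in wild type (1.51 to 1.70) and a 1.11-fold higher level in the IDO1 line (1.05 to 1.18). In DMF, SREBF1 was 1.42-fold lower in the IDO1 line (1.35 to 1.5), and in indole it was 1.25-fold higher there (1.18 to 1.34).

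SREBF2 moved less. It had 209 and 229 CPM in the IDO1 line with indole and with DMF, against 187 and 235 CPM in wild type with indole and with DMF, from 3617 to 5231 reads. Both lines were lower with indole, by 1.1-fold in the IDO1 line (1.06 to 1.15) and by 1.25-fold in wild type (1.20 to 1.31). With DMF the lines did not separate beyond counting error, since SREBF2 was 1.02-fold lower in the IDO1 line with an interval of 0.984 to 1.06, and its log2 ratio of -0.03 became 0.06 when library totals replaced the TMM scaling. In indole it was 1.12-fold higher in the IDO1 line (1.07 to 1.17).

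SCAP, the escort that senses sterol, was the steadiest member with TMM scaling. Its level was 183 and 196 CPM in the IDO1 line with indole and with DMF, and 198 and 190.3 CPM in wild type with indole and with DMF, from 3507 to 4463 reads. The highest library was 1.08-fold above the lowest (1.03 to 1.13), and no neighbouring libraries in its order were apart beyond counting error. Within the IDO1 line SCAP was 1.07-fold lower with indole (1.02 to 1.12). In wild type the ratio of indole to DMF was 1.04 (0.996 to 1.09), and its log2 ratio was 0.06 with TMM scaling and 0.23 with library totals. With those totals SCAP ran from 178.5 to 209.7 CPM, and SREBF2 from 197.8 to 230.1 CPM.

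INSIG2, the paralog of INSIG1, had few reads. It had 83 and 83 reads in the IDO1 line with indole and with DMF, against 107 and 106 reads in wild type with indole and with DMF. These are 4.34 and 3.64 CPM against 5.53 and 4.98 CPM, and no neighbouring libraries were apart beyond counting error. In DMF it was 1.37-fold lower in the IDO1 line (1.02 to 1.85), and with library totals 1.28-fold lower, with an interval of 0.952 to 1.73 that includes equality. The ratio of INSIG1 to INSIG2 reads, which compares different targets and so carries the PCR efficiency of each, was 48.6 and 51.8 in the IDO1 line with indole and with DMF, and 24.4 and 70.8 in wild type with indole and with DMF.

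MYLIP, a ubiquitin ligase that marks lipoprotein receptors for degradation, was also low. It had 58 and 58 reads in the IDO1 line with indole and with DMF, and 46 and 76 reads in wild type with indole and with DMF, or 2.38 to 3.57 CPM over the libraries. Its libraries ran in the order of INSIG1, but no neighbours in that order were apart beyond counting error. In wild type it was 1.5-fold lower with indole (1.03 to 2.22), and in the IDO1 line the ratio of indole to DMF was 1.19 (0.814 to 1.75). With library totals the fold in wild type was 1.33 lower, with an interval of 0.912 to 1.965 that includes equality.

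ABCA1, which exports cholesterol to apolipoprotein acceptors, had few reads. Its libraries ran in the order of those of SCAP, over a wider range. It had 18 reads in the IDO1 line with indole and 62 with DMF, against 61 in wild type with indole and 51 with DMF. These are 0.94 and 2.72 CPM in the IDO1 line with indole and with DMF, and 3.15 and 2.40 CPM in wild type with indole and with DMF. The IDO1 line with indole was the lowest library and the only one apart from its neighbour beyond counting error. With indole, ABCA1 was 2.89-fold lower in the IDO1 line than with DMF (1.69 to 5.19), while in wild type the ratio was 1.31 (0.891 to 1.95). In indole its level in the IDO1 line was 3.35-fold below that of wild type (1.95 to 6.03), and in DMF the ratio of the IDO1 line to wild type was 1.13 (0.770 to 1.68). This rests on 18 reads in 1 library.

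How often such differences arose over all genes was counted on the log2 ratio of CPM plus 1, for genes with at least 10 CPM in 1 of the libraries compared. That minimum kept SREBF1, SREBF2, SCAP, INSIG1 and STARD4 in every comparison and left out INSIG2, MYLIP and ABCA1. In wild type, 2 of the 5 members compared, INSIG1 and STARD4, were at least 2-fold lower with indole, against 1.54% of 8679 genes lower and 2.9% apart in either direction. INSIG1 had a log2 ratio of -1.38, below which lay 0.3% of the genes compared, and STARD4 had -1.04, below which lay 1.28%. The 5 members had a median of -0.68, against -0.04 over all genes. With library totals the median of all genes moved to 0.13, INSIG1 was 2.32-fold lower (2.22 to 2.43) and STARD4 1.85-fold lower (1.70 to 2.03). The split of all genes called higher and lower was 118 and 134, and with library totals it was 248 and 75.

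In the IDO1 line, 0 of 5 members were 2-fold apart with indole, against 0.0821% of 8523 genes, which is 7 genes. The members' median was 0.15, and that of all genes was -0.01. SREBF1, INSIG1 and STARD4 had log2 ratios of 0.15, 0.16 and 0.17, and SREBF2 and SCAP had -0.14 and -0.09. In wild type the same genes had -0.68, -1.38, -1.04, -0.33 and 0.06.

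**Figure D2:**
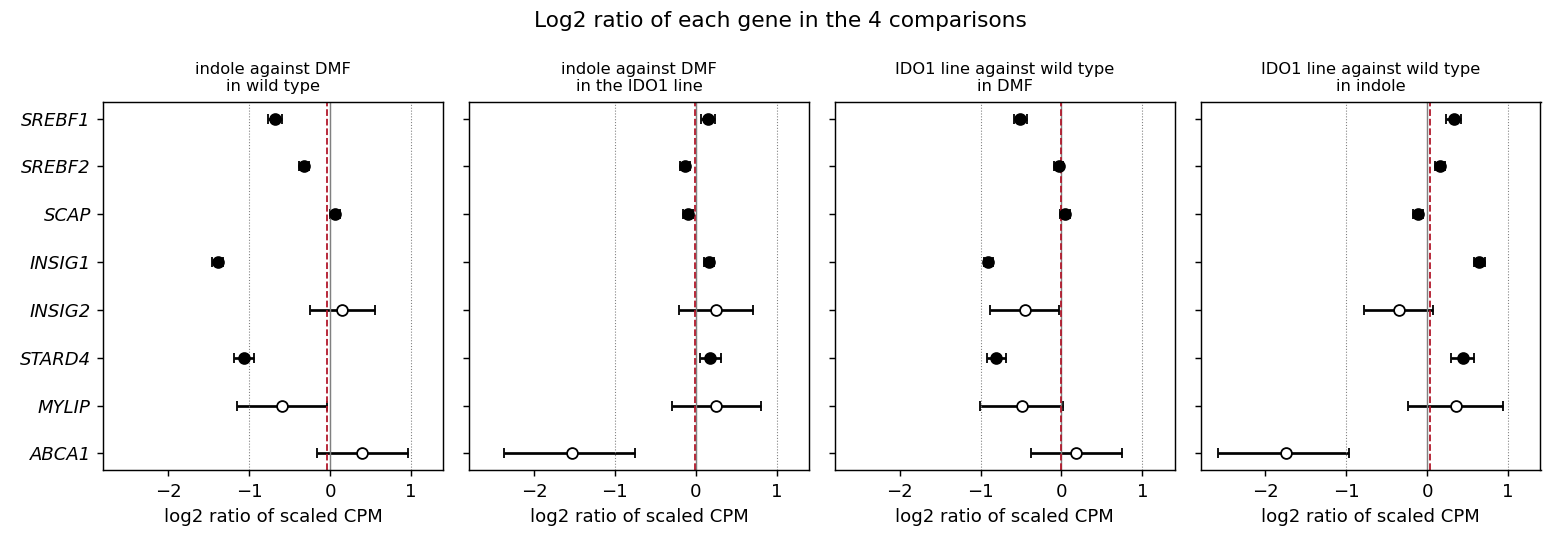
Log2 ratio of scaled CPM for each gene in the 4 comparisons. Filled points were compared at 10 CPM or more, open points were below that in both libraries, dotted lines mark 2-fold and the red dashed line is the median of all genes compared. INSIG1 and STARD4 lie beyond 2-fold in wild type with indole against DMF, with folds of 2.62 and 2.09 lower when no pseudocount is added.

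The responses of the lines to indole were set against each other as the log2 ratio in the IDO1 line minus that in wild type. INSIG1 gave 1.54, STARD4 1.22 and SREBF1 0.83, while SREBF2 gave 0.19 and SCAP -0.15. Of the 5 members, INSIG1 and STARD4 reached 1 in size, against 4.75% of 8845 genes. Among the low members, MYLIP gave 0.62, INSIG2 0.08 and ABCA1 -1.23. With 1 library per group these differences could not be tested.

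Between the lines in DMF, 0 of 5 members were 2-fold apart, against 0.447% of 8500 genes. At 1.5-fold lower, INSIG1 and STARD4 were called, against 1.26% of the genes. INSIG1 had a log2 ratio of -0.90 and STARD4 -0.79, below which lay 0.224% and 0.400% of the genes, and SREBF1 had -0.50, below which lay 2.31%. The members' median was -0.50, against -0.01 over all genes. This comparison and that of indole with DMF in wild type share the wild type DMF library, where INSIG1, STARD4 and SREBF1 were highest, so they are not independent of each other.

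In indole, 0 of 5 members were 2-fold apart between the lines, against 4.51% of 8765 genes. The members' median was 0.32 and that of all genes 0.03, and 200 genes were called higher and 195 lower, counts that library totals made 147 and 274. INSIG1 had a log2 ratio of 0.64, STARD4 0.43, SREBF1 0.32, SREBF2 0.16 and SCAP -0.11. With the minimum lowered to 1 CPM, which all 8 members passed, ABCA1 was called lower at -1.10, against 2.7% of 12536 genes. It no longer reached 2-fold with the trend with abundance removed, at -0.65, or with a pseudocount of 5, at -0.46. With the library that stood apart left out, the IDO1 line with indole can be set against wild type with DMF, which changes line and treatment at once. INSIG1 was then 1.67-fold lower (1.61 to 1.74), STARD4 1.54-fold (1.42 to 1.67), SREBF1 1.28-fold (1.21 to 1.35) and ABCA1 2.55-fold lower (1.47 to 4.64), and SCAP was 1.04-fold lower (0.993 to 1.09).

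The lines also differed in genes of an embryonic kidney line and of neurons. Of 20 such markers, the IDO1 line exceeded wild type by 2-fold or more for 8, with indole and with DMF alike, among them VIM, UCHL1 and IRS4, against 0.778% of all 20812 genes counted in the same way with no minimum level. At the minimum of 10 CPM, 6 were compared, of which 4 were 2-fold higher in indole and 3 in DMF. All 20 together summed to 1119 and 1122 CPM in the IDO1 line with indole and with DMF, against 594 and 820 CPM in wild type. Most of each sum was CKB, which was not among the 8. CKB had 883 and 912 CPM in the IDO1 line with indole and with DMF, against 524 and 712 CPM in wild type. By edgeR's quasi-likelihood test in an additive fit of line and treatment, 11 of the 18 tested rose in the IDO1 line, against 2.03% of the genes tested, while DESeq2 called 4. The list was drawn up with earlier results of these data known, so these counts and shares describe it and test nothing. The part of these markers in the differences of the members between the lines was not tested.

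An additive fit of line and treatment over all 4 libraries, by edgeR's quasi-likelihood test with Benjamini-Hochberg adjustment, was the test over all groups. For the line effect, 0 of 8 members passed an adjusted p of 0.05, against 2.45% of 13122 genes. An unadjusted p below 0.05 was found for 0 of 8, against 1311 of those genes, and DESeq2 called 0 of 8. INSIG1 had a line effect of -0.14 ± 0.29 (log2, SE) with an adjusted p of 0.941, STARD4 one of -0.20 ± 0.25 with 0.891, and ABCA1 one of -0.70 ± 0.47 with 0.705. For the indole effect, 0 of 8 members and 0% of the genes passed, while 448 genes had an unadjusted p below 0.05, and DESeq2 also called 0, with 129 unadjusted. INSIG1 had -0.60 ± 0.29 with an unadjusted p of 0.0439 and an adjusted p of 1.00 in edgeR's test, and STARD4 had -0.43 ± 0.25. The 1 residual degree of freedom holds the difference between the lines in their response to indole together with library noise.

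Fits with a library left out had line as their 1 factor, so they differ from the additive fit in model as well as in libraries. Without wild type with indole, the line effect was -0.82 ± 0.11 for INSIG1, -0.71 ± 0.13 for STARD4 and -0.43 ± 0.12 for SREBF1 (log2, SE). Without wild type with DMF, it was instead 0.56 ± 0.12 for INSIG1, 0.34 ± 0.15 for STARD4 and 0.24 ± 0.13 for SREBF1. The sign of the line effect of these genes thus depended on which wild type library was kept. In both of these fits the lone wild type library was assumed to vary like the IDO1 pair. The residual was the difference between indole and DMF in the IDO1 line, used as if it were the spread of replicates. Because edgeR shares dispersion estimates over genes, the SE of a gene does not come from its own residual alone.

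Ratios of reads within a library do not depend on how libraries are scaled. INSIG1 per SCAP was 1.15 and 0.963 in the IDO1 line with indole and with DMF, and 0.680 and 1.85 in wild type with indole and with DMF. That is 2.73-fold lower with indole in wild type (2.56 to 2.90) and, in DMF, 1.92-fold lower in the IDO1 line (1.82 to 2.04). SREBF1 per SREBF2 was 0.526 and 0.431 in the IDO1 line, against 0.468 and 0.599 in wild type, in the same order of treatments. INSIG1 per STARD4 was steadier, at 4.23 and 4.28 in the IDO1 line and 3.67 and 4.60 in wild type. These ratios show unequal change between genes and not which of the pair changed.

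**Figure D3:**
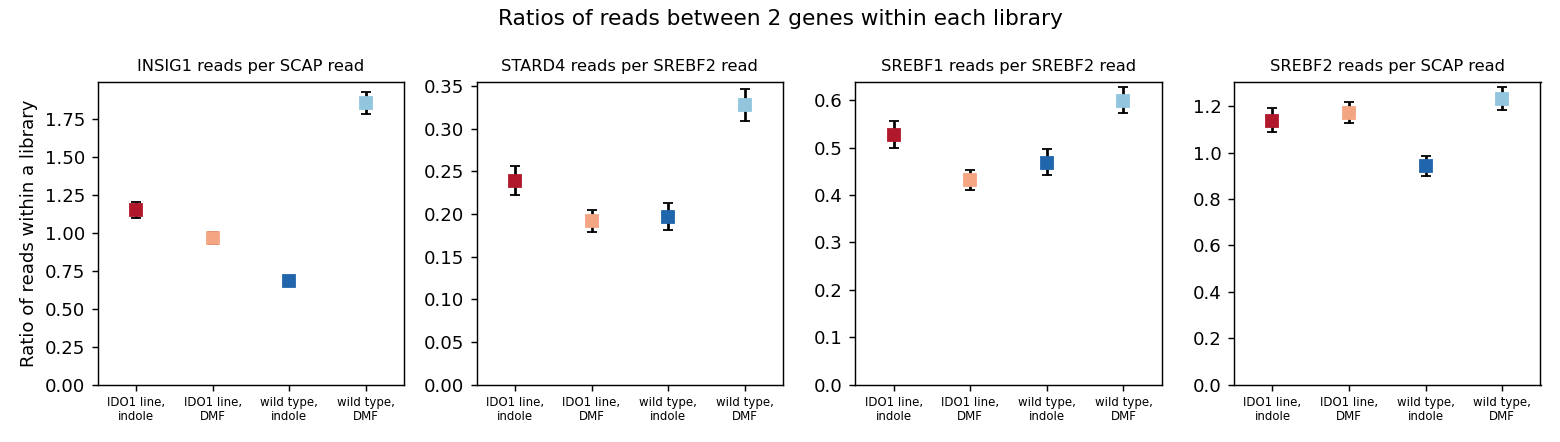
Ratios of reads of member pairs within each library, with 95% intervals of counting error. The libraries run from the IDO1 line with indole and with DMF to wild type with indole and with DMF. INSIG1 per SCAP is lowest in wild type with indole, at 0.680, and highest in wild type with DMF, at 1.85.

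STARD4 and SREBF1, 2 of the 4 other members with a mean of at least 10 CPM, had their libraries in the order of INSIG1. It was wild type with DMF, the IDO1 line with indole, the IDO1 line with DMF and wild type with indole, from high to low. Of all 8397 genes with such a mean, 7.24% had it, and with library totals 3.22% of 8409 did. Over the 4 libraries, the genes whose centred log2 profile lay nearest to that of INSIG1 were FDPS, the farnesyl diphosphate synthase of the mevalonate pathway, at a Euclidean distance of 0.19, and STARD4 at 0.24. FDPS had 129 and 112 CPM in the IDO1 line with indole and with DMF, and 80.8 and 183 CPM in wild type with indole and with DMF. HNRNPA3, an RNA-binding protein, also lay near, at 0.27. Nearest to ABCA1 were ATF7, ADK and CLIC4, at 0.23, 0.23 and 0.24, and ABCA1 and INSIG1 were the members farthest apart, at 1.46.

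The other genes of the pathway were read in lists, which were drawn up with earlier results of these data known. Of 14 compared genes that process SREBPs or act with SCAP and INSIG proteins, 0 were 2-fold apart in any comparison, and the list's medians lay between 0.02 and 0.04. Over all genes, 0.0821% to 4.51% were 2-fold apart, so 0 of 14 does not set this list apart. In wild type with indole, MBTPS1, the protease that makes the first cut in SREBPs, was 1.39-fold higher (1.29 to 1.49), RNF139, a sterol-sensing ubiquitin ligase, 1.38-fold higher (1.24 to 1.53), and TMEM97, a sterol-binding membrane protein, 1.69-fold lower (1.55 to 1.84).

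Genes of sterol uptake, storage and transport had medians of 0.07 in wild type and -0.02 in the IDO1 line with indole against DMF, and of -0.04 in DMF and -0.17 in indole between the lines. Of 20 compared in indole, 1 was 2-fold apart between the lines, a share close to the 4.51% of all genes. It was GRAMD1B, which carries cholesterol from the plasma membrane, 2.37-fold lower in the IDO1 line (1.88 to 3.01). The other comparisons had 0 calls in this list, where 0.0821% to 2.9% of all genes were called. In wild type with indole, the endocytic receptor LRP1 was 1.94-fold higher (1.68 to 2.23), and SCARB1, a receptor for high-density lipoprotein, 1.34-fold lower (1.29 to 1.39). The 6 compared genes of LXR, its partner RXR and LXR targets had 0 calls in any comparison, where 0.0821% to 4.51% of all genes were called. Of the 6, LPCAT3, which remodels phospholipids, was 1.37-fold lower in wild type with indole (1.26 to 1.48). In DMF it was 1.37-fold lower in the IDO1 line (1.27 to 1.48).

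The enzymes that SREBPs turn on made up the remaining lists. With indole in wild type, 7 of 18 sterol synthesis enzymes lay 2-fold or more below DMF, 0 lay above it by as much, and the list's median was -0.72. Over all genes, 1.54% were that much lower. Among them were ACAT2, which makes acetoacetyl-CoA, at 3.49-fold (3.09 to 3.96), and MVD, the decarboxylase of the mevalonate pathway, at 2.74-fold (2.63 to 2.85). In the IDO1 line the median with indole was 0.06 with 0 calls, against 0.0821% of all genes. Between the lines it was -0.37 in DMF, with 0 calls, against 0.447% of all genes, and 0.46 in indole. There HMGCS1 was 2.29-fold higher in the IDO1 line (2.16 to 2.43) and ACAT2 3.35-fold higher (2.96 to 3.81), 2 of 18 against 2.28% of all genes. The 11 fatty acid enzymes had a median of -0.59 in wild type with indole, where 1 of 11 was called: FASN, the fatty acid synthase, was 2.42-fold lower (2.38 to 2.46). Of the 82 entries of the 5 pathway lists tested in the additive fit, 0 passed for line or for indole in edgeR's test or in DESeq2. In edgeR's test 6 had an unadjusted p below 0.05 for line and 8 for indole, where 1311 and 448 of all 13122 genes did. The order of the libraries seen in INSIG1 was held by 8 of the 18 sterol enzymes, 4 of the 11 fatty acid enzymes, 1 of 14 processing genes, 1 of 19 transport genes and 0 of 6 LXR genes, where 7.24% of all genes had it.

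**Figure D4:**
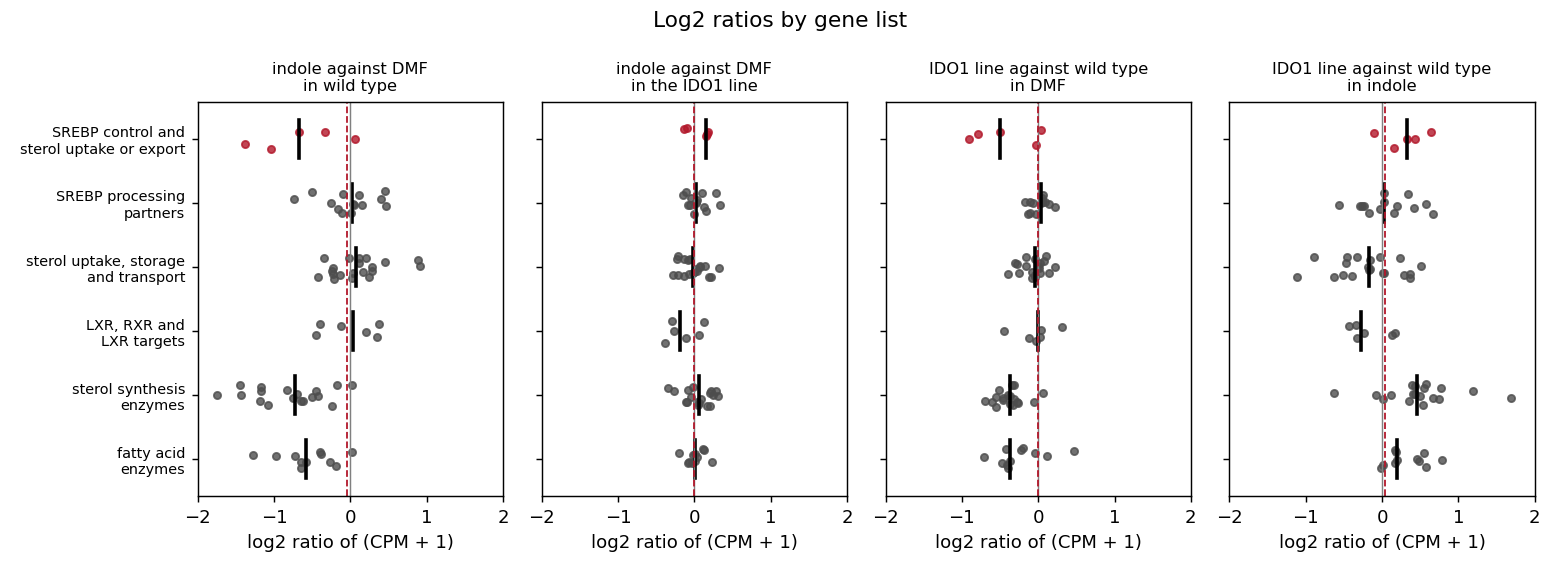
Log2 ratio of CPM plus 1 for the genes of the 5 pathway lists and the members in each comparison. Red points are the members, black bars are list medians and the red dashed line is the median of all genes compared. In wild type with indole against DMF, the medians are -0.72 for sterol enzymes, -0.59 for fatty acid enzymes and -0.68 for the members, and near 0 for the other lists.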

How the data were processed

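Messenger RNA was measured by AmpliSeq amplicon sequencing, which reads 1 short PCR target per gene, in 4 libraries. Each table deposited by the authors holds raw read counts per target, with no normalization, as the file headers and whole numbers show. The submitters' processing notes name hg19. The aligner, the counter and the place of each target within its gene are not given in the sources used here, so a value covers only the part of the transcript that its target reads. The series' design text names 2 replicates each, but each table has 1 count column. Whether replicates were summed is not stated, so each group counted as 1 library. No label ties the libraries to separate cultures. With 1 library per group, a p-value here does not measure the spread of replicates. In the additive fit the residual holds the difference between the lines in their indole response together with library noise, which may be technical. In the fits with a library left out, the residual is the difference between the libraries still paired, which differ in treatment or in line.

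Counts were scaled by TMM (edgeR 4.0.16, R 4.3.3) to CPM. Log2 ratios used CPM plus a pseudocount of 1, which understates changes of low genes, and were taken for genes with at least 10 CPM in 1 of the compared libraries. Folds divide scaled CPM with no pseudocount added, and their exact 95% Clopper-Pearson intervals come from the split of reads. Without molecular identifiers PCR reads are not independent molecules, and the intervals cover counting error only. The additive fit was edgeR's quasi-likelihood test on raw counts after filterByExpr, with Benjamini-Hochberg adjustment over all genes tested at 0.05. Its SE was back-calculated from the F statistic and is approximate, and its p-values also rest on dispersion estimates shared over genes. DESeq2 1.42.0 was an alternative. The line effect of edgeR's additive fit was run on simulated data with known changes, and the outcome is not reported here. The abundance trend of an alternative was a lowess curve (statsmodels 0.14.6).

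The members and lists were chosen with earlier results of these data known. Genes named are the 8 members, IDO1, up to 2 genes with the largest ratio in each direction per list and comparison, and genes among the 5 nearest profiles to INSIG1 and ABCA1. Some of those are not reported here. Alternatives were library totals, median-of-ratios factors, totals without the 10 most abundant genes, pseudocounts of 0.25 and 5, minimums of 1 and 50 CPM, a 1.5-fold threshold, removal of an abundance trend, other filters, and, added after seeing the data, leaving out each library. Promoter sequences came from RefSeq on GRCh38.p14, where all 8 members matched.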

Additional observations from a re-analysis of the deposited data

Results flagged for a closer look

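INSIG1, STARD4 and SREBF1 moved in opposite directions with indole in the lines, higher in the IDO1 line and lower in wild type, with counting intervals that left out equality on both sides. The rises in the IDO1 line were small, at 1.12-fold, 1.13-fold and 1.11-fold. There 82.95%, 84.75% and 81.53% of the genes compared had lower log2 ratios, so many genes rose by more. In wild type 0.3%, 1.28% and 6.83% of the genes had lower log2 ratios. The log2 response in the IDO1 line minus that in wild type was 1.54 for INSIG1, 1.22 for STARD4 and 0.83 for SREBF1. The difference was not tested, since each group was 1 library, and wild type with indole is the library that stood apart from the rest on the first principal component.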

How the results depend on the processing

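The 2 members at least 2-fold lower with indole in wild type became 1, INSIG1, with library totals, with totals that leave out the 10 most abundant genes, with a pseudocount of 5 and with the abundance trend removed, STARD4 no longer reaching 2-fold. With a 1.5-fold threshold, the 0 of 5 members called between the lines became 2 in DMF, INSIG1 and STARD4, against 2.15% of genes, and 1 in indole, INSIG1, against 21.4%. In wild type with indole it gave 3, with SREBF1 added, against 16.8%. A minimum of 1 CPM gave 1 between the lines in indole, ABCA1. The additive line effect called 0 members. With each library left out in turn, the line effect for INSIG1 in fits on line alone ranged from -0.82 to 0.56, reversed without wild type with DMF. These fits change both the model and the libraries, and the cause was not tested. Over all genes the line effect called 322, against 86 with DESeq2, 74 with at least 10 CPM in 2 libraries, and 80 to 4316 in those fits on 3 libraries and line alone. The indole effect called 0 genes, 6 with library totals, 10 with no filter, 5 with at least 10 CPM in 2 libraries and 0 to 109 in fits on 3 libraries and indole alone. Of the pairwise results for members, 158 stayed within counting error or, for a count, within 1.5 times it, and 34 did not. Over all genes, minimums of 1 and 50 CPM, a pseudocount of 5 and a 1.5-fold threshold changed the count of genes called. For the lines in DMF they gave 236, 12, 25 and 183 genes in place of 38, and for the lines in indole 756, 177, 240 and 1872 in place of 395. For indole in the IDO1 line, the 1 and 50 CPM minimums and the 1.5-fold threshold gave 14, 3 and 61 in place of 7, and in wild type the 50 CPM minimum, the pseudocount of 5 and the 1.5-fold threshold gave 118, 149 and 1459 in place of 252. No paired analysis was possible because the groups share only 1 replicate number, and the additive fit already sets the lines against each other within each treatment. Depth limits INSIG2, MYLIP and ABCA1, which had 18 to 107 reads a library.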
